A study of Mus musculus with 4 samples.

Results

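The machinery that writes, copies and removes 5-methylcytosine was described across germ-cell stages of the mouse testis at 1 age, using 8 transcripts. Dnmt1 and Uhrf1 act in copying methylation after replication, Dnmt3a, Dnmt3b and Dnmt3l in setting it anew, and Tet1, Tet2 and Tet3 in oxidising it. All 8 were picked by symbol from the 32285 genes in the count matrices. Single cells came from whole testes of C57BL/6N pups at postnatal day 15 (P15), 2 wild type and 2 Meioc-null, prepared as 2 batches that each held one littermate of either genotype, and 1 testis was taken per pup. MEIOC is a germ-cell protein of meiotic entry, and its null allele (Meioc tm1.1Dpc) was carried in every cell of the animal. Both genotypes were also heterozygous for Hspa2 tm1Dix and homozygous for a ROSA26-tdTomato reporter whose stop cassette was left intact. The Meioc tags counted here lie at the 3′ end of the transcript and do not check the genotype labels.

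DNMT1 is the maintenance methyltransferase, and UHRF1 recognises hemimethylated DNA behind the replication fork and brings DNMT1 to it, so both are known as proteins of dividing cells. DNMT3A and DNMT3B methylate unmethylated DNA, whereas DNMT3L has no catalytic activity of its own and acts as their cofactor in fetal prospermatogonia, where the male germline pattern is established. TET enzymes convert 5-methylcytosine to oxidised forms that can be diluted by replication or excised by base excision repair. Premeiotic S phase is the last genome replication before the meiotic divisions, and the DNA made in it is known to pass through a hemimethylated state in early spermatocytes.

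Each library held 11986 to 16486 barcodes, of which 6334 to 8494 had more than 1000 detected genes and under 10% mitochondrial UMIs (unique molecular identifiers, 1 per captured transcript). The 690 to 996 barcodes per library with the highest doublet scores were removed as doublets, a number fixed by the expected rate, and 5644 to 7505 remained. The doublet caller's own threshold marked 1.94 to 4.99% of the barcodes that passed. The median depth of the kept cells was 11698.5 to 14446 UMIs, and any pair of libraries shared 12 to 16 barcodes. Germ cells of the wild type were divided into 10 clusters without using any of the 8 transcripts, and Meioc-null cells were placed among them by their nearest wild-type cells. Meioc-null germ cells were thus given a wild-type cluster even where they had no close wild-type counterpart. The paper reports a cluster made up of Meioc-null spermatocytes, mainly in G2/M phase, and where such cells were placed here was not examined. Cluster 1 was undifferentiated-spermatogonia-like, clusters 2 to 6 were differentiating-spermatogonia-like and cluster 7 held the peak of Stra8, the gene that marks meiotic entry. Clusters 8 and 9 were early-spermatocyte-like and cluster 10 was pachytene-like, with 368 and 541 wild-type cells and 0 Meioc-null cells, so cluster 10 has no genotype comparison. The count of 0 holds for the placing used here. In the paper's own clustering some Meioc-null cells were assigned to pachytene spermatocytes. Levels are given as CPM, the UMIs of a transcript per 1000000 UMIs summed over the cells of one cluster in one library, and are set against each other within a transcript, not between transcripts. Because the clusters were built from the same cells, levels across clusters are described without a test. Genotypes were compared on UMIs summed per library with the quasi-likelihood test of edgeR, for transcripts with a UMI in at least 25% of the cells of either genotype. Log2 fold changes divide wild type by Meioc-null, and a difference was called at a Benjamini-Hochberg adjusted p under 0.05 with a log2 fold change beyond 0.1 in either direction. With 2 pups per genotype, the spread behind these tests is that between the 2 pups of each genotype, which edgeR moderates by the spread of the other genes tested. The 2 pups of a genotype came from different batches, so that spread holds both pup and batch. The littermate pairing is not in the main model.

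Promoter windows are printed for 3 transcripts on which the results below turn: Dnmt1, Uhrf1, its partner in maintenance, and Dnmt3l. Where RefSeq gives several starts, the window shown is the one that held a match to the letters searched, and the other windows of these genes held none. Each window is RefSeq sequence of GRCm38.p6, 250 bases before and 50 bases from an annotated start, read 5′ to 3′ on the strand of the gene.
Dnmt1, chr9:20952574-20952873, minus strand: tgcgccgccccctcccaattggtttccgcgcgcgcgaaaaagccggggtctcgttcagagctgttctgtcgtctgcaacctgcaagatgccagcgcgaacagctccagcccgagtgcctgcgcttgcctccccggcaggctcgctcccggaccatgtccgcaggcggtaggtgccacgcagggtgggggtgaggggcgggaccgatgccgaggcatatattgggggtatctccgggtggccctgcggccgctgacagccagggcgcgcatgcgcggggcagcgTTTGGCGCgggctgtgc
Uhrf1, chr17:56303087-56303386, plus strand: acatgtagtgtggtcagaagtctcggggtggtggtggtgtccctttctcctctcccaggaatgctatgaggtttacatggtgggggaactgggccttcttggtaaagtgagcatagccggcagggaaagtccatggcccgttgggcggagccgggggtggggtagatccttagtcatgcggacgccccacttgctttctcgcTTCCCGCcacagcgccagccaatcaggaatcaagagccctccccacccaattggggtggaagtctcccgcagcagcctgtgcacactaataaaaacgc
Dnmt3l, chr10:78049592-78049891, plus strand: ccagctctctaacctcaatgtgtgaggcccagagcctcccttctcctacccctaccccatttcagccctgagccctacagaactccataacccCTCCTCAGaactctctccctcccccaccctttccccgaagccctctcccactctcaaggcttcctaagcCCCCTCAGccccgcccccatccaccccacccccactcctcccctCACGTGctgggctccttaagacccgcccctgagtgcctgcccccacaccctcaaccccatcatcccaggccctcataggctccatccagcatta
Capitals mark matches to letters searched on both strands: TTTCCCGC and TTTGGCGC, sites of E2F factors, which control genes of the G1/S transition; TTCCCGC, their shorter core, which lies within TTTCCCGC; CACGTG, the E-box bound by MAX and its partners such as MGA; and CNCCTCAG, the site of STRA8, where N is any base. Of 15 windows for the 8 genes, 4 held a match to any of these. The share of all windows with any match was not counted, so 4 is not read as more than usual. The Dnmt1 window held TTTGGCGC, present in 0.514% of the 32851 promoter windows of the genome, and it lies among the first 50 transcribed bases. The Uhrf1 window held TTCCCGC, present in 4.6% of windows. The Dnmt3l window held CNCCTCAG at 2 positions and CACGTG at 1, present in 7.94% and 7.15% of windows, and the fourth matching window was a downstream start of Dnmt3a with CACGTG. TTTCCCGC, present in 1.07% of all windows, was in none of the 15. RefSeq gives 3 starts for Dnmt1, 2 for Uhrf1 and 3 each for Dnmt3a and Dnmt3l, and 3′ tags do not tell which start was used, so these matches are descriptions of the letters only.

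Dnmt1 (ENSMUSG00000004099, chromosome 9, 20907209 to 20959888, minus strand) was abundant in wild-type spermatogonia and reached its lowest levels after the Stra8 peak. Wild-type replicates 1 and 2 had 213 and 195 CPM in cluster 1, 348 and 421 CPM in cluster 3 and 386 and 394 CPM in cluster 5. In cluster 7 the values were 231 and 214 CPM, in cluster 8 they were 86.2 and 64.4 CPM, and in cluster 9 they were 29.2 and 25.4 CPM. The wild-type change from cluster 7 to cluster 8 was thus -1.42 and -1.73 on the log2 scale, and that from cluster 8 to cluster 9 was -1.56 and -1.34, so both steps contributed in both pups. Clusters 8, 9 and 10 were each apart from their neighbours in the order of levels, with no overlap between libraries, and the highest clusters, 5 and 3, overlapped. In the pachytene-like cluster Dnmt1 was 36.7 and 29.7 CPM. The somatic cells of the same testes had 19.0 to 48.9 CPM of Dnmt1, a range that contains the wild-type values of clusters 9 and 10.

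The share of cells with a Dnmt1 UMI followed the same course when cells were thinned to 5000 UMIs and shallower cells were left out. Wild-type replicates 1 and 2 had shares of 62.8% and 60.8% at cluster 7, then 30.3% and 26.5% at cluster 8, and finally 15.1% and 10.8% at cluster 9. The exact binomial intervals for cluster 9 were 11.7 to 19.1% and 8.998 to 12.8%, and they cover counting error only. Unthinned, the cluster 9 shares were 27.1% and 21.9%. Sertoli cells, of which 314 of 459 and 176 of 293 wild-type cells were too shallow and left out, had thinned shares of 12.4% and 13.7% in the wild type, with intervals of 7.53 to 18.9% and 8.02 to 21.3% that overlap those of cluster 9.

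Uhrf1 (chromosome 17, 56303321 to 56323486, plus strand) did not show the loss at meiotic entry named in its selection. Its wild-type levels were highest in clusters 2 to 4, at 163 and 129 CPM in cluster 3, and stood at 52.6 and 49.4 CPM in cluster 8, the lowest of the 10 clusters in this division of the cells. In cluster 7 they were 72.5 and 53.1 CPM, in cluster 9 82.6 and 73.3 CPM, and in cluster 10 78.4 and 66.7 CPM. The change from cluster 7 to cluster 9 was 0.19 and 0.47 on the log2 scale, against -2.98 and -3.07 for Dnmt1 in the same cells. The step from cluster 8 to cluster 9 was 0.65 and 0.57, but it was not stable: with doublets kept Uhrf1 was 76.7 and 71.1 CPM in cluster 8 and 71.3 and 58.7 CPM in cluster 9, and with 15 graph neighbours the pups moved in opposite directions. Other clusterings were matched to these clusters by shared wild-type cells, as a share of the cells in either. That share was 0.519 for cluster 8 and 0.427 for cluster 9 with doublets kept, where their order was reversed. It was 0.656 and 0.587 with 15 graph neighbours, and 0.373 and 0.698 with the listed genes allowed to shape the clusters. Over 5 other settings of clustering or placing the wild-type mean in cluster 8 was 41.3 to 73.9 CPM. Cluster 8 was under cluster 7 in 2 of them. These were the clustering with the listed genes allowed and the placing without genes called between genotypes, which kept the clusters. Somatic cells had 5.00 to 23.3 CPM, below every germ-cell value. When the listed genes were allowed to shape the clusters, the wild-type mean change from cluster 7 to cluster 9 was -0.24 instead of 0.33. The sign of this small step thus depends on where the cells are divided. The wild-type mean in cluster 9 stayed between 65.0 and 77.8 CPM over the 5 other settings of clustering or placing.

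**Figure D1:**
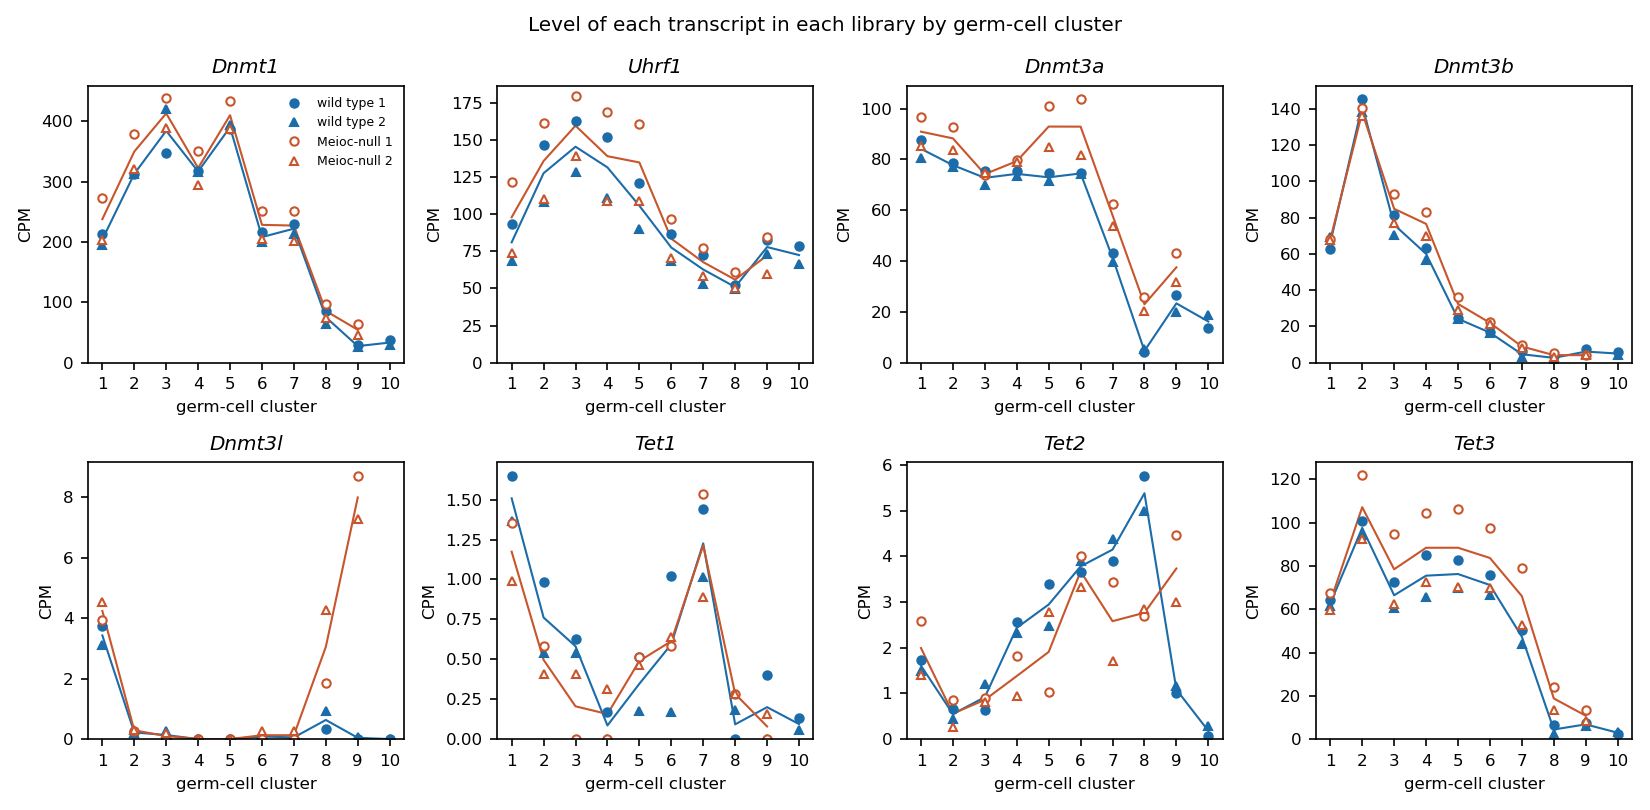
CPM (vertical axis, linear, from 0) of each of the 8 transcripts in germ-cell clusters 1 to 10 (horizontal axis), with 1 point per library, filled blue for wild type and open orange for Meioc-null, and lines through the genotype means. Dnmt1 goes from 231 and 214 CPM in cluster 7 to 29.2 and 25.4 CPM in cluster 9 in the wild type, while Uhrf1 is at 82.6 and 73.3 CPM there.

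Transcripts of an S phase list were set beside Dnmt1 in the same clusters, and replication itself was not measured. The 42 transcripts of the S phase list, which does not include the members shown beside it as separate values, summed to 8785 and 8420 CPM in wild-type cluster 7, to 9218 and 9373 CPM in cluster 8 and to 4102 and 4245 CPM in cluster 9. Dnmt1 was at 86.2 and 64.4 CPM in cluster 8, where the S phase sum was above its cluster 7 level. With the listed genes allowed to shape the clusters, Dnmt1 was 162 and 136 CPM in wild-type cluster 8 and 251 and 242 CPM in cluster 7, so the size of this step depends on where cluster 8 is cut. In the Meioc-null testes the S phase sum was 8763 and 8120 CPM in cluster 7, 8127 and 8245 CPM in cluster 8, and 6302 and 5765 CPM in cluster 9. The 52 G2/M transcripts were higher in the Meioc-null at all 3 positions, at 12186 and 11984 CPM against 8623 and 8940 CPM in cluster 7 and at 16722 and 16937 CPM against 11357 and 11384 CPM in cluster 9.

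**Figure D2:**
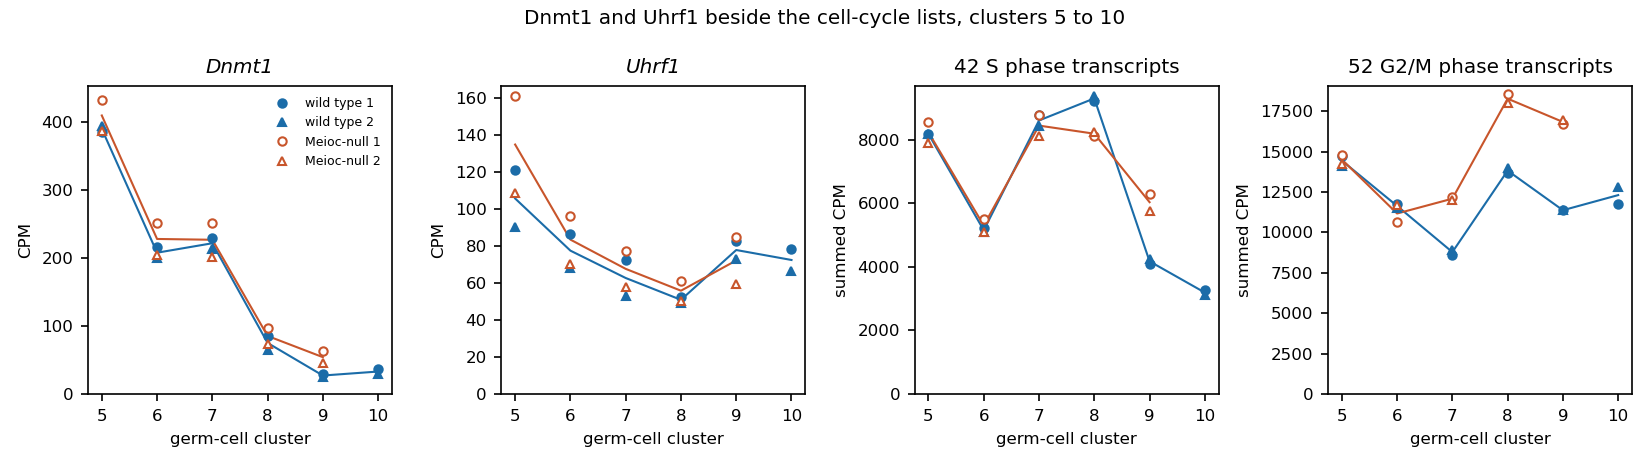
CPM of Dnmt1 and Uhrf1 and summed CPM of the S phase and G2/M phase lists (vertical axes, linear, from 0) in clusters 5 to 10 (horizontal axes), with 1 point per library and lines through the genotype means. Dnmt1 in wild-type cluster 8, 86.2 and 64.4 CPM, lies well under its cluster 7 values while the S phase sum is 9218 and 9373 CPM.

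Dnmt3a, one of the de novo enzymes (chromosome 12, 3806007 to 3914443, plus strand), had a flat level in wild-type spermatogonia and a minimum in cluster 8. It lay between 70.1 and 87.8 CPM in clusters 1 to 6 and was 43.2 and 39.5 CPM in cluster 7. In cluster 8 it was 4.07 and 5.18 CPM, from 12 and 28 UMIs, and in cluster 9 it was 26.6 and 20.0 CPM, from 133 and 240 UMIs. The cluster 9 values are above the cluster 8 values in both pups, and in cluster 10 the level was 13.6 and 18.8 CPM. In 5 other settings of clustering or placing the wild-type mean in cluster 8 was 4.44 to 15.9 CPM. The antisense gene Dnmt3aos overlaps Dnmt3a and had 0 UMIs in all 4 libraries in cluster 8.

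Dnmt3b, the other catalytic de novo enzyme (chromosome 2, 153649450 to 153687730, plus strand), was a transcript of early spermatogonia. It was 62.7 and 69.4 CPM in wild-type cluster 1 and 145 and 138 CPM in cluster 2, its highest value and apart from every other cluster. By cluster 5 it was 24.4 and 24.0 CPM, and in cluster 7 it was 6.17 and 3.04 CPM. Clusters 7, 9 and 10 overlapped, at 3.04 to 7.40 CPM.

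Dnmt3l, the cofactor (chromosome 10, 78041947 to 78063622, plus strand), was counted in wild-type undifferentiated spermatogonia and rarely in later wild-type germ cells. It was 3.75 and 3.11 CPM in cluster 1, from 50 UMIs in each pup, and no library exceeded 0.317 CPM in clusters 2 to 7. In clusters 4 and 5 no UMI was counted in any of the 4 libraries. Wild-type cluster 9 held 0 and 1 Dnmt3l UMIs and cluster 10 held 0 in both pups, where a count of 0 among 329 and 522 thinned cells, taking 3 counts as the limit, allows a share of up to 0.912% and 0.575% of cells with a UMI at that depth, which does not limit the share of cells that express it. Sertoli cells had 0.543 to 1.97 CPM.

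Among the TET transcripts, Tet3 (chromosome 6, 83362373 to 83459084, minus strand) was the one with a substantial level in germ cells relative to the somatic cells of the same testes, and it too was low after the Stra8 peak. Wild-type Tet3 was 64.1 and 61.3 CPM in cluster 1, 101 and 94.5 CPM in cluster 2 and 50.6 and 44.0 CPM in cluster 7. In cluster 8 it was 6.45 and 2.40 CPM, in cluster 9 7.60 and 6.00 CPM and in cluster 10 2.52 and 3.37 CPM, while Sertoli cells had 73.8 to 102 CPM. For Tet3, cluster 8 overlapped clusters 9 and 10, which did not overlap each other, whereas for Dnmt3a cluster 8 was apart from both.

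Tet1 (chromosome 10, 62804570 to 62908996, minus strand) was a somatic transcript in these testes. No germ-cell cluster of any library exceeded 1.65 CPM. Peritubular myoid cells, the contractile cells around the tubules, had 56.2 and 65.0 CPM in the wild type and 70.1 and 56.3 CPM in the Meioc-null. An unnamed somatic class led by Clec3b and Dcn had 45.4 and 62.2 CPM in the wild type and 64.0 and 59.6 CPM in the Meioc-null. Leydig cells had 10.0 to 20.7 CPM and Sertoli cells 4.92 to 13.8 CPM. Tet2 (chromosome 3, 133463679 to 133545139, minus strand) was also mainly somatic, at 11.9 to 49.7 CPM outside the germ line and at most 5.77 CPM within it. Its highest germ-cell values were those of wild-type cluster 8, 5.77 and 4.99 CPM from 17 and 27 UMIs.

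**Figure D3:**
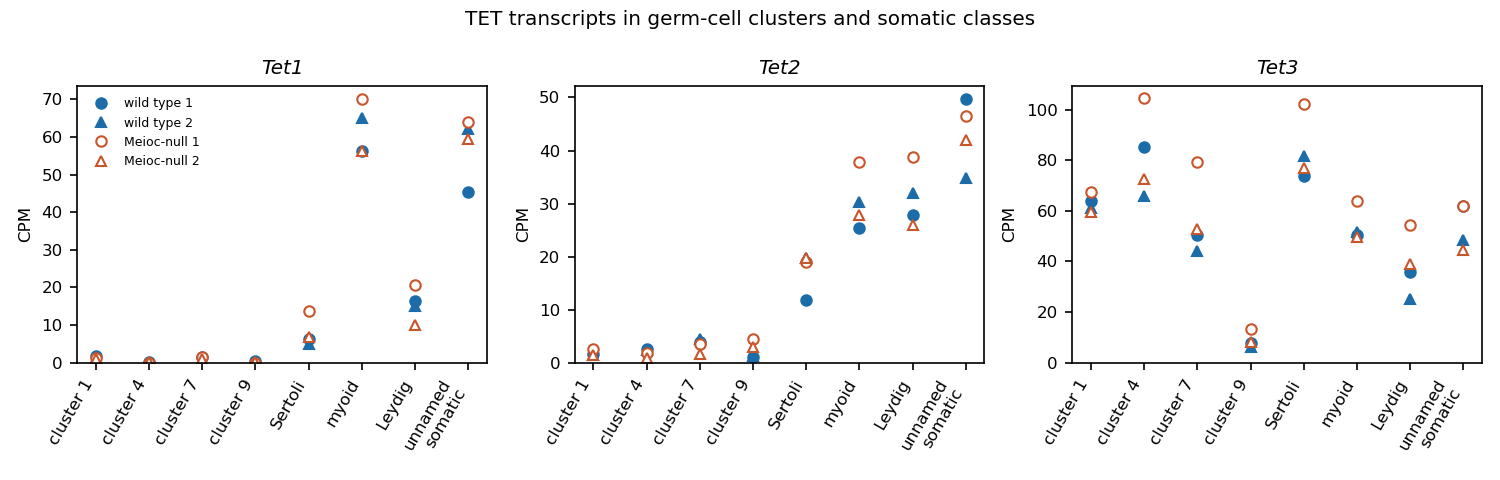
CPM of Tet1, Tet2 and Tet3 (vertical axes, linear, from 0) in 4 of the germ-cell clusters and 4 somatic classes (horizontal axes), with 1 point per library. Tet1 is at 56.2 to 70.1 CPM in peritubular myoid cells and at most 1.65 CPM in the germ line, whereas Tet3 is present in both.

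The genotypes were compared first up to meiotic entry. In clusters 1 to 6, the spermatogonia, none of the 4 or 5 members tested per cluster was called, beside a background, in either direction, of 0% of all genes tested in clusters 1, 4 and 5, 0.0239% in cluster 2, 0.0522% in cluster 3 and 0.844% in cluster 6. Their log2 fold changes in these clusters were between -0.37 and 0.06. Meioc-null Dnmt1, for example, was 438 and 388 CPM in cluster 3 and 433 and 387 CPM in cluster 5, and Meioc-null Uhrf1 was 180 and 140 CPM in cluster 3, which overlapped the wild type. The unadjusted p was under 0.05 in 4 of these 29 comparisons, and with DESeq2 none passed. The lowest unadjusted p was 0.0160, for Dnmt3b in cluster 4, with a log2 fold change of -0.32 (SE 0.11) and an edgeR adjusted p of 1.00. With the littermate batch as a term in the edgeR model, 2 members passed in this range: Uhrf1 in cluster 5 (log2 fold change -0.31, adjusted p = 0.0342), beside 3.24% of all genes called there by that model, and Dnmt3a in cluster 6 (log2 fold change -0.30, adjusted p = 0.0242), beside 8.35%.

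At the Stra8 peak, cluster 7, 1 of 4 members tested was called, Dnmt3a, which was lower in the wild type, beside 23.1% of all genes called in either direction and 14.1% lower in the wild type. Dnmt3a was 43.2 and 39.5 CPM in the wild type and 62.3 and 53.7 CPM in the Meioc-null, with no overlap. Its log2 fold change was -0.44 (SE 0.12, edgeR adjusted p = 0.0116), and the batches gave -0.53 and -0.44. This call was lost without wild type replicate 2 (-0.42, adjusted p = 0.0628), without Meioc-null replicate 1 (-0.38, adjusted p = 0.0924), with the listed genes allowed in the clustering (-0.26, adjusted p = 0.160) and with a mitochondrial limit of 5% (-0.63, adjusted p = 0.130). Tet3 was 50.6 and 44.0 CPM in the wild type and 79.3 and 52.9 CPM in the Meioc-null. Its log2 fold change of -0.43 (SE 0.15, edgeR adjusted p = 0.0578) missed the threshold, and with the batch in the model it passed (-0.42, adjusted p = 9.72e-05), beside 42% of all genes. Neither Dnmt1 (log2 fold change 0.01) nor Uhrf1 (-0.06) was called at this stage.

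In cluster 8, the first early-spermatocyte-like cluster, the detection filter left 2 members, Dnmt1 and Uhrf1, and neither was called, beside 47.3% of all genes called. Dnmt1 was 86.2 and 64.4 CPM in the wild type and 97.2 and 73.9 CPM in the Meioc-null, overlapping ranges, and the edgeR estimate was -0.12 on the log2 scale (SE 0.15, adjusted p = 0.536). With the listed genes allowed to shape the clusters the Dnmt1 estimate turned to 0.38 (adjusted p = 0.0245), at 162 and 136 CPM against 137 and 104 CPM. Uhrf1 was 52.6 and 49.4 CPM against 61.4 and 50.4 CPM. Dnmt3a and Tet3 did not reach the filter of 25% of cells in either genotype and were tested with a filter of 20 UMIs over the 4 libraries instead. Dnmt3a had 12 and 28 UMIs in the wild type and 182 and 142 UMIs in the Meioc-null, or 4.07 and 5.18 CPM against 25.8 and 20.2 CPM. Tet3 had 19 and 13 UMIs in the wild type and 169 and 96 UMIs in the Meioc-null, or 6.45 and 2.40 CPM against 23.9 and 13.6 CPM. Both Meioc-null libraries were above both wild-type libraries for each transcript. With that filter the log2 fold change was -2.15 for Dnmt3a (SE 0.27, edgeR adjusted p = 7.11e-05) and -2.09 for Tet3 (SE 0.39, edgeR adjusted p = 0.00155), beside 29.4% of all genes called in cluster 8 with that filter. The contrast was smaller when the listed genes were allowed to shape the clusters, with Dnmt3a at 17.4 and 14.4 CPM against 33.9 and 27.4 CPM and Tet3 at 24.9 and 15.0 CPM against 40.5 and 27.0 CPM in cluster 8. Markers of differentiating spermatogonia were also higher in the Meioc-null in cluster 8, at 573 and 537 CPM against 409 and 362 CPM. Early spermatocyte markers were higher there too, at 5751 and 5589 CPM against 5132 and 4937 CPM. Pachytene markers were lower, at 204 and 221 CPM against 304 and 282 CPM. Markers of undifferentiated spermatogonia were also lower, at 9.34 and 4.69 CPM against 16.0 and 12.6 CPM. The part of these marker levels in the differences was not tested.

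In cluster 9, 2 of 3 members tested were lower in the wild type, Dnmt1 and Dnmt3a, and here 60.4% of all genes were called in either direction, 30.6% lower and 29.8% higher in the wild type. Dnmt1 was 29.2 and 25.4 CPM in the wild type and 63.7 and 45.0 CPM in the Meioc-null, with no overlap. Its log2 fold change was -0.96 (SE 0.15, edgeR adjusted p = 8.47e-06), with -1.12 and -0.82 in the batches. The thinned share of cells with a Dnmt1 UMI was 25.7% and 22.0% in the Meioc-null against 15.1% and 10.8% in the wild type. Over all wild-type cells of cluster 9 Dnmt1 and Dnmt3a were each under the detection filter, with a UMI in 27.1% and 21.9% of the cells of the pups for Dnmt1 and in 25.1% and 17.6% for Dnmt3a, so both entered the test through the Meioc-null and the count of 2 of 3 is not read as support. With the filter of 20 UMIs, which the wild-type UMIs pass on their own, the values were -0.95 (adjusted p = 9.13e-08) and -0.67 (adjusted p = 0.000305), beside 47.4% of all genes called. Meioc-null cells in cluster 9 held more Dnmt1 than wild-type cells placed there, but less than Meioc-null cells of cluster 7, which had 252 and 202 CPM.

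Dnmt3a in cluster 9 was 26.6 and 20.0 CPM in the wild type and 43.1 and 31.9 CPM in the Meioc-null, with no overlap. Its log2 fold change was -0.67 (SE 0.17, edgeR adjusted p = 0.00146), with -0.69 and -0.67 in the batches. This call depended on how the cells were divided: the value was -0.21 with 15 graph neighbours or 8 clusters, -0.37 (adjusted p = 0.0601) with the listed genes allowed and -0.02 without doublet removal, and it was -0.48 (adjusted p = 0.0612) without wild type replicate 2. Uhrf1 was 82.6 and 73.3 CPM in the wild type and 84.9 and 59.7 CPM in the Meioc-null, overlapping ranges. Its log2 fold change was 0.15 (SE 0.13, edgeR adjusted p = 0.327), -0.04 in one batch and 0.29 in the other, and without Meioc-null replicate 1 it was 0.37 (adjusted p = 0.0262).

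**Figure D4:**
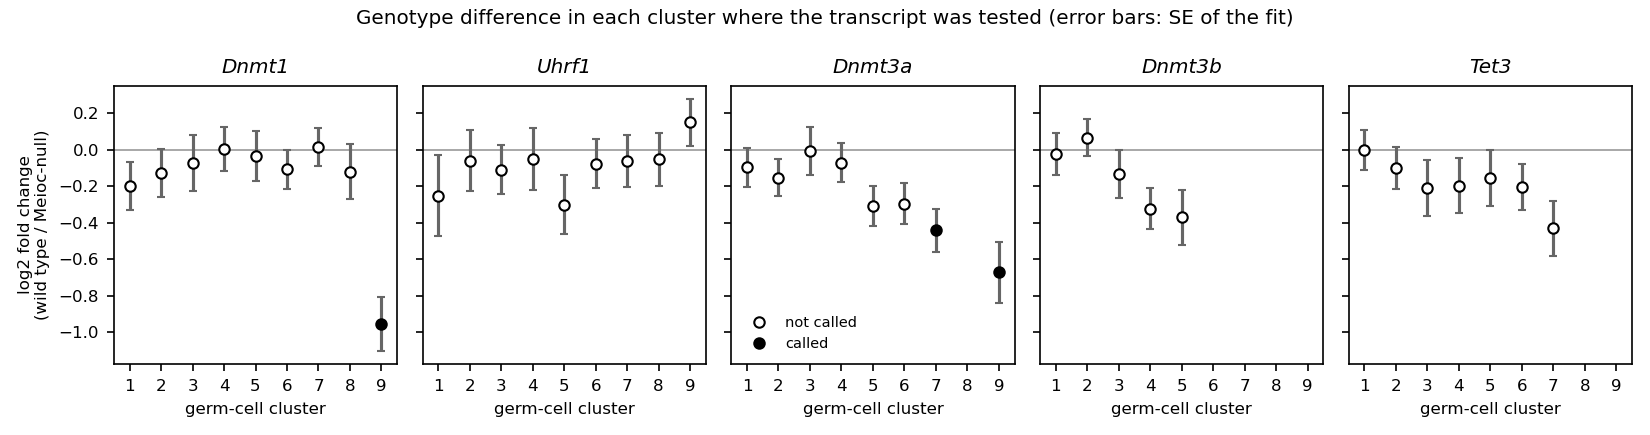
Log2 fold change, wild type over Meioc-null (vertical axis), of the 5 members that passed the detection filter in germ-cell clusters 1 to 9 (horizontal axis), where error bars are the SE of the edgeR fit and filled points are called. The 3 filled points are Dnmt3a in cluster 7 at -0.44, Dnmt1 in cluster 9 at -0.96 and Dnmt3a in cluster 9 at -0.67.

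Whether the genotype effect itself changed after the Stra8 peak was tested with library as a block. From cluster 7 to cluster 8 the effect moved by -1.70 for Dnmt3a (SE 0.25, edgeR adjusted p = 7.86e-06) and by -1.69 for Tet3 (SE 0.29, edgeR adjusted p = 6.81e-05). These movements shrank when the listed genes were allowed to shape the clusters, to -0.64 for Dnmt3a (adjusted p = 0.00394) and to -0.45 for Tet3 (adjusted p = 0.0631), which no longer passed. Of 4 members tested, these 2 were called, beside 35.3% of all genes. From cluster 7 to cluster 9 it moved by -0.999 for Dnmt1 (SE 0.11, edgeR adjusted p = 9.82e-08), the 1 call among 4 members, beside 61% of all genes. Dnmt1 changed by -1.99 and -2.17 from cluster 7 to cluster 9 in the Meioc-null pups against -2.98 and -3.07 in the wild-type pups. The Meioc-null steps from cluster 8 to cluster 9 were -0.61 and -0.71, and where between clusters 7 and 9 the difference lay depended on the division of the cells. For Uhrf1 the effect moved by 0.06 (SE 0.14, adjusted p = 0.763) to cluster 8 and by 0.21 (SE 0.12, adjusted p = 0.132) to cluster 9. When the genes called between genotypes were left out of the placing of cells, the Uhrf1 movements were 0.38 and 0.48 and passed the threshold, and with the listed genes allowed the movement to cluster 8 passed with the opposite sign, at -0.37.

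Dnmt3l was counted in early spermatocytes of Meioc-null pups and hardly at all in those of wild-type pups. In cluster 9 the wild-type libraries held 0 and 1 UMIs and the Meioc-null libraries 39 and 46 UMIs, or 0 and 0.0834 CPM against 8.71 and 7.27 CPM. Summed by genotype, the ratio of Meioc-null to wild type was 134, with an exact interval of 23.4 to 5340 that covers counting error only. The thinned share of cells with a Dnmt3l UMI was 5.39% and 5.57% in the Meioc-null, against 0 of 390 cells, which at 3 counts allows a share with a UMI of up to 0.769%, and 0.0939% in the wild type. Unthinned shares were 10% and 11.1% against 0 and 0.0917%. In the same Meioc-null libraries, cluster 1 had 58 and 87 Dnmt3l UMIs, or 3.93 and 4.55 CPM, with a UMI in 8.51% and 11.8% of cells unthinned and in 1.95% and 2.18% of cells thinned. Meioc-null clusters 4 and 5 had none and cluster 7 had 0 and 4.

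In cluster 8 the same direction was present, with 1 and 5 UMIs in the wild type and 13 and 30 UMIs in the Meioc-null, a ratio of 4.24 (counting interval 1.80 to 12.2). Over 5 other settings of clustering or placing the mean in cluster 8 was 0.320 to 0.621 CPM in the wild type and 1.06 to 5.34 CPM in the Meioc-null. With doublets kept Meioc-null cluster 8 held 42 and 70 Dnmt3l UMIs against 11 and 7 in cluster 9. The cluster in which most of them lay thus depended on the division of the cells. With the listed genes allowed the libraries overlapped in cluster 8, at 0.153 and 0.739 CPM against 0.624 and 1.49 CPM. Dnmt3l did not reach the detection filter, and it would reach 20 UMIs through the Meioc-null alone, so no test is given. Over 5 other settings of clustering or placing the mean in cluster 9 was 0.0356 to 0.0578 CPM in the wild type and 4.88 to 7.24 CPM in the Meioc-null. Aire, which overlaps Dnmt3l on the opposite strand, had 0, 1, 0 and 0 UMIs in cluster 9 of wild-type replicates 1 and 2 and Meioc-null replicates 1 and 2. Summed Sertoli markers in cluster 9 were 51.3 to 91.6 CPM over the 4 libraries, and Sertoli cells themselves held 0.543 to 1.97 CPM of Dnmt3l, below the Meioc-null values of cluster 9.

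**Figure D5:**
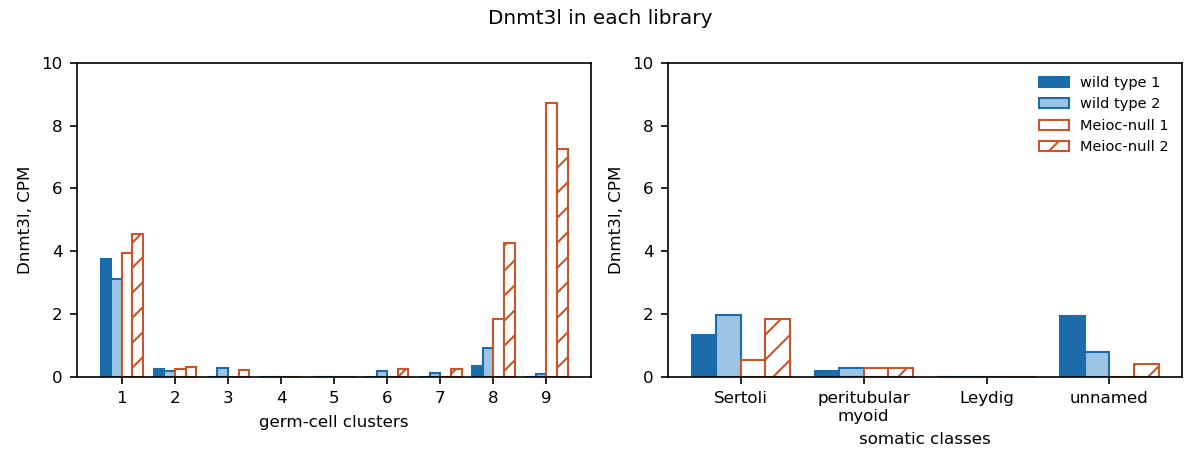
CPM of Dnmt3l (vertical axes, linear, from 0) in germ-cell clusters 1 to 9 (left) and in somatic classes (right), with 1 bar per library. The Meioc-null bars of cluster 9 stand at 8.71 and 7.27 CPM, next to wild-type values of 0 and 0.0834 CPM.

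The remaining low transcripts gave smaller contrasts. Tet2 in cluster 9 was counted with 5 and 14 UMIs in the wild type and 20 and 19 UMIs in the Meioc-null, or 1.00 and 1.17 CPM against 4.47 and 3.00 CPM, a ratio of 3.23 (counting interval 1.82 to 5.91) and it reached the filter of 20 UMIs through the Meioc-null, so no test is given. In cluster 8 its order was the opposite, 5.77 and 4.99 CPM in the wild type and 2.69 and 2.84 CPM in the Meioc-null, which was not called (adjusted p = 0.0778). Tet3 in cluster 9 was 7.60 and 6.00 CPM against 13.4 and 8.22 CPM, and that filter gave a log2 fold change of -0.63 (SE 0.27, edgeR adjusted p = 0.0467). Dnmt3b in cluster 7 was 6.17 and 3.04 CPM against 9.65 and 8.13 CPM and was not called with that filter (edgeR adjusted p = 0.0650). In cluster 9 its order was the opposite, at 4.75 to 7.40 CPM in the wild type and 3.95 to 4.24 CPM in the Meioc-null. The log2 fold change there was 0.54 (SE 0.34, edgeR adjusted p = 0.191), not called. From cluster 7 to cluster 9 Dnmt3b changed by 0.26 and 0.65 in the wild type and by -1.19 and -1.04 in the Meioc-null, on the log2 scale. Tet1 had at most 2 UMIs in any library of clusters 8 and 9, too few to show a difference.

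Outside the germ line no member was called by edgeR or DESeq2, and 0 of 7 comparisons had an unadjusted p under 0.05. In Sertoli cells the 3 members tested, Dnmt1, Dnmt3a and Tet3, had log2 fold changes of -0.35 to -0.18, beside 0.0415% of all genes called. Macrophage markers summed to 996 CPM in the Sertoli class of Meioc-null replicate 2 and to 2.34 to 22.3 CPM in that of the other libraries, and the part of this in the values was not tested. In peritubular myoid cells the 4 members tested, Tet1, Tet2, Tet3 and Dnmt3a, had log2 fold changes of -0.18 to -0.01, beside 0.0761% of all genes called. Leydig cells and the unnamed somatic class were not tested.

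Values that moved with the genotype in cluster 9 stand beside its calls. The 6 markers of differentiating spermatogonia summed to 260 and 234 CPM in the wild type and 766 and 727 CPM in the Meioc-null, and the S phase and G2/M sums were also higher in the Meioc-null. The 8 pachytene markers summed to 722 and 619 CPM in the wild type and 306 and 317 CPM in the Meioc-null, and the 8 early spermatocyte markers to 4936 and 4509 CPM against 6245 and 5765 CPM. The 7 markers of undifferentiated spermatogonia were near 0 in both, at 10.6 and 8.92 CPM against 6.48 and 4.27 CPM. Cluster 9 held 399 and 1090 cells in the wild type and 370 and 404 in the Meioc-null, with median depths of 10780 and 10434.5 against 12033.5 and 15105 UMIs, and the median mitochondrial share was 7.41 to 7.80% in the 4 libraries. The part of stage within the cluster, of cells without a wild-type counterpart, of spermatogonial transcripts, of cell-cycle state and of depth was not tested. This holds for the differences of Dnmt1, Dnmt3a and Dnmt3l. Replicate 1 had more Uhrf1 than replicate 2 in 10 of 10 wild-type clusters and 9 of 9 Meioc-null clusters. The same order held for Tet3 and Dnmt3b in 9 of 10 and 9 of 9 clusters each, for Dnmt1 in 7 of 10 and 9 of 9, and for Dnmt3a in 8 of 10 and 8 of 9.

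The partners of the 8 members were followed in lists of their pathway. In the maintenance list, 7 of 8 genes were tested in cluster 7, where 23.1% of all genes were called, and 2 were lower in the wild type, namely Cdca7, a cofactor of the chromatin remodeller HELLS, at 40.4 and 35.7 CPM against 78.8 and 73.9 CPM (log2 fold change -0.96, adjusted p = 2.54e-05) and Uhrf2, the paralogue of Uhrf1 (-0.47, adjusted p = 0.00399). In cluster 9, 2 of 7 were higher and 2 lower in the wild type. Cdca7 was 18.0 and 20.2 CPM against 79.5 and 61.6 CPM (-1.82, adjusted p = 2.38e-10). Its wild-type level was below that of Dnmt1 in cluster 9, 29.2 and 25.4 CPM, which was under the detection filter. Cdca7 thus probably entered through the Meioc-null, and its call there is not read as support. Lig1, the ligase of replication, was 114 and 116 CPM against 230 and 199 CPM (-0.86, adjusted p = 9.35e-08). Usp7, the deubiquitinase that stabilises DNMT1 and UHRF1, was higher in the wild type, at 126 and 128 CPM against 98.7 and 91.5 CPM (0.45, adjusted p = 0.000395). The median log2 fold change of the maintenance list in cluster 9 was -0.13, beside -0.002 over all genes tested.

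Of 14 genes in the list of TET partners and base excision repair, 6 were tested in cluster 9, of which 5 were lower and 1 was higher in the wild type, with a list median of -1.15. Tdg, the glycosylase that excises the products of TET oxidation, was already lower in cluster 7 (30.0 and 28.3 CPM against 52.9 and 45.9 CPM, -0.71, adjusted p = 0.000781), the 1 call among 7 tested there beside that 23.1%. In cluster 9 it was 18.6 and 20.9 CPM against 57.2 and 45.5 CPM (-1.31, adjusted p = 8.36e-08). Apex1, the endonuclease of abasic sites, had -1.16 (adjusted p = 2.69e-08), and Gadd45b had -1.29 (adjusted p = 0.000453). In the list of methyl-CpG readers, 4 of 9 tested were lower and 1 was higher in cluster 9, among them Mbd4, a thymine glycosylase (-1.18, adjusted p = 2.16e-05), Mbd5 (-0.93, adjusted p = 3.98e-06) and Zbtb38, a zinc finger reader of methylated DNA (0.95, adjusted p = 1.14e-05). Mbd4, at 14.8 and 13.1 CPM in the wild type, also entered through the Meioc-null. Wild-type Tdg, Gadd45b (20.0 and 12.8 CPM) and Mbd5 (25.4 and 24.6 CPM) in cluster 9 were below wild-type Dnmt1 too. They probably entered in the same way, and their calls there are not read as support. Zbtb38, at 40.0 and 44.5 CPM in the wild type and 20.8 and 24.0 CPM in the Meioc-null, may have entered through the wild type. Its call is not read as support either.

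Among partners of de novo methylation and imprinting, 1 of 2 tested was called in cluster 9: Trim28, the corepressor recruited by KRAB zinc finger proteins, was higher in the wild type (288 and 237 CPM against 185 and 178 CPM, log2 fold change 0.56, adjusted p = 9.60e-05). In the supply of S-adenosylmethionine, the methyl donor, 3 of 5 were lower and 1 was higher in the wild type. Mat2a, the synthetase subunit, was 403 and 351 CPM against 558 and 592 CPM (-0.58, adjusted p = 0.000491), Mat2b, its regulatory subunit, had -0.81 (adjusted p = 4.85e-06), and Ahcyl2 had -0.62 (adjusted p = 5.21e-05). In clusters 1 to 6 no gene of these 5 lists was called in either direction, and in cluster 7 none beyond the 3 named above was. In cluster 8, where 47.3% of all genes were called, 2 of 7 maintenance genes were higher and 3 lower in the wild type (list median 0.12), 4 of 6 genes of the TET and repair list were lower and 0 higher (-0.59), and 3 of 5 readers were lower and 1 was higher (-0.39), beside a median of -0.01 over all genes tested. There, 1 of 3 de novo partners was lower, and among genes of S-adenosylmethionine supply 2 of 5 were higher and 1 was lower. Of the S phase list, 4 of 38 genes tested were higher and 3 lower in the wild type in cluster 7, 14 of 35 higher and 6 lower in cluster 8, and 0 of 35 higher and 25 lower in cluster 9. Of the G2/M list, 31 of 47, 36 of 48 and 34 of 49 genes were lower in the wild type in these clusters, and 0, 0 and 4 were higher. All these adjusted p values are from edgeR over all genes tested in the cluster, and with 60.4% of genes called in cluster 9 a call there is common. A gene can pass the detection filter through a single genotype, so the list counts and medians are not read as support.

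Transcripts whose wild-type profile over the 10 germ-cell clusters was most like that of a member were named by Pearson's r of log2(CPM + 1), as a description over 10 points that share libraries. For Dnmt1 they were Rfc3, a subunit of the clamp loader of replication (r = 0.990), Scarb1 (r = 0.988) and Psat1 (r = 0.987). For Uhrf1 they were Pwp2 (r = 0.964), Aldh16a1 (r = 0.961) and Nop2 (r = 0.959). Dnmt3a was closest to Trmt11 (r = 0.992), Dnmt3b to Stk11ip (r = 0.991) and Tet3 to Ptprf (r = 0.995). No transcript was among the nearest 3 of both Dnmt1 and Uhrf1.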

How the data were processed

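The deposited UMI counts were used, 1 gene by barcode matrix per library, which the authors made with Cell Ranger 4.0.0 on mm10 (GRCm38), per the submitters' processing notes; Seurat is also named there. Cells were filtered as stated above, Scrublet scores removed an expected 0.8% of doublets per 1000 barcodes, and wild-type cells were clustered with scanpy 1.11.5 (2000 variable genes without members or listed genes, 30 principal components, 20 neighbours, Leiden resolution 0.3). All cells were placed by the majority of their 30 nearest wild-type cells, which returned 99% of wild-type germ cells to their own cluster. Sums per library were tested with edgeR 4.0.16 (TMM, robust quasi-likelihood, genotype only; clusters with at least 50 cells per library), after tests on simulated data. The members, lists and tests were chosen with earlier results of these data known. Named genes were all members, the 3 called genes of each list with the largest change in clusters 7 and 9, and the 3 most alike transcripts. Replicate numbers pair littermates per the labels, and deviations of same-numbered samples correlated at r = 0.381 to 0.618 in clusters 1 to 9. Alternatives were DESeq2 1.42.0, its size factors, other filters, a replicate block, each library left out, a 5% mitochondrial limit, doublets kept, and other clusterings and placing.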

Additional observations from a re-analysis of the deposited data

Results flagged for a closer look

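For 3 results the genotype effect differed between clusters by a test of the difference itself (edgeR, genotype by cluster, log2, wild type over Meioc-null). Dnmt3a moved by -1.70 and Tet3 by -1.69 from cluster 7 to cluster 8, and Dnmt1 moved by -0.999 from cluster 7 to cluster 9. No group has the 4 samples that a check for outlying samples needs.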

How the results depend on the processing

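The Dnmt1 call in cluster 9 held in 14 of 14 alternatives (-1.17 to -0.61), and the changes of genotype effect of Dnmt3a to cluster 8 (-2.04 to -0.64) and of Dnmt1 to cluster 9 (-1.10 to -0.59) held in 11 of 11. That of Tet3 held in 10 of 11 (-2.33 to -0.45) and was lost with listed genes allowed. For these changes 15 neighbours, 8 clusters and listed genes allowed were chosen after seeing the data. Dnmt3a held in 11 of 15 in cluster 7 and 9 of 14 in cluster 9. The alternatives other than the filter of 20 UMIs and no filter kept the detection filter. In cluster 9 Dnmt1 and Dnmt3a passed it through the Meioc-null, so their counts there are not read as support. With the filter of 20 UMIs the cluster 9 values were -0.95 for Dnmt1 (edgeR adjusted p = 9.13e-08) and -0.67 for Dnmt3a (edgeR adjusted p = 0.000305). Against 3 member calls over the germ-cell clusters, beside 12.7% of all tests called, a filter of 20 UMIs gave 8 (9.28% of all tests). Of those, Dnmt3l and Tet2 in cluster 9 entered through the Meioc-null. No filter gave 10 (6.92%), the replicate block of littermate pairs 6 (18%), no doublet removal 5 (13.5%) and leaving called genes out of the placing 5 (14%). A 5% mitochondrial limit gave 0 (4.23%), where only clusters 6 and 7 were matched and kept 50 cells per library. At that limit clusters 8 and 9 had no matching cluster, with best shares of wild-type cells of 0.118 and 0.217. Leaving out 1 library gave 1 to 4, the lowest being without wild type replicate 2, where Dnmt1 in cluster 9 was the call that held. The replicate block changed no call other than the 3 it added, Uhrf1 in cluster 5, Dnmt3a in cluster 6 and Tet3 in cluster 7. Against 3 calls of a changed genotype effect (48.6% of all tests), the filter of 20 UMIs gave 5 (34.9%), leaving called genes out 5 (51.8%) and no doublet removal 6 (53.1%), and each left-out library gave 3. The wild-type change of Dnmt1 from cluster 7 to cluster 9 was -3.03, with -3.44 for 15 neighbours, -3.47 for 8 clusters, -3.50 with listed genes allowed, -3.46 without doublet removal and -3.07 to -2.98 with 1 library left out. That of Uhrf1 was 0.33, with -0.24 with listed genes allowed, 0.065 without doublet removal and 0.19 to 0.47 with 1 library left out. Dnmt1 in cluster 8 was 0.38 with listed genes allowed (-0.12 as reported), and the movement of Dnmt3a to cluster 9 was 0.42 without doublet removal (-0.25 as reported). With listed genes allowed the movements to cluster 8 were 0.46 for Dnmt1 (-0.11 as reported) and -0.37 for Uhrf1 (0.06 as reported); the cause was not tested. Members with few UMIs per library, namely Dnmt3l, Tet1 and Tet2 in germ cells, are limited by depth.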
